A study of Mus musculus with 18 samples.

Results

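The epithelial claudins described here are Cldn1, Cldn3, Cldn4, Cldn7, Cldn8, Cldn10 and Cldn12, 7 genes found by their symbols among the 55536 genes of the count table. Their levels were followed in cultured organoids of the mouse mammary gland, in 18 libraries that fall into 6 groups of 3. Per the labels, the organoids came from glands of C57BL/6 mice aged 6 to 7 weeks. They were either RasGRP1-/- (KO), lacking an exchange factor that activates Ras, or wild type (WT). Every culture sat in a matrigel pellet under DMEM/F12 that carried an insulin-transferrin-selenium supplement, and received growth factors for 5 days. ERW medium held EGF at 2.5 nM with NGS-Wnt, a surrogate Wnt ligand, at 0.1 nM and Rspo2, an R-spondin that raises the response to Wnt, at 8.3 nM. EGF medium held EGF alone at 2.5 nM, and RW medium held NGS-Wnt at 0.1 nM and Rspo2 at 8.3 nM without EGF. The labels number the batches 1 to 3 as they number the replicates, so each batch holds 1 library of every group. The labels give the cell type as mammary epithelial cells and name no sorting step, and they do not say how many animals stand behind a culture.

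Claudins are the membrane proteins that form the strands of the tight junction. They span the membrane with their ends inside the cell, and their outer loops meet those of claudins on the neighbouring cell. Some members, such as Cldn1, Cldn3, Cldn4 and Cldn8, mainly seal the space between cells, while others, such as Cldn2 and Cldn10, form pores that let ions through. In the mammary gland the luminal cells carry the tight junctions, which close around the onset of lactation.

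The claudins moved with the medium and in different directions from one another. With EGF in place of NGS-Wnt and Rspo2, Cldn7, Cldn12 and Cldn10 were higher and Cldn1 and Cldn3 were lower than in RW medium. With EGF added to NGS-Wnt and Rspo2, Cldn7 and Cldn12 were higher, and Cldn1 and Cldn3 did not pass the test. None of the 7 genes passed the test between KO and WT organoids. Cldn4, which did not pass in any comparison of media either, differed most between batches.

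The gene positions that follow are those the authors deposited with their gene annotation. Cldn3 lies on chromosome 5 of GRCm38 at chr5:134986214-134987472 on the plus strand, and Cldn4 lies at chr5:134945119-134946934 on the minus strand, 39.3 kb away. Cldn12 is on the same chromosome at chr5:5489537-5514958, minus strand. Cldn1 lies at chr16:26356642-26371841 and Cldn8 at chr16:88560828-88563183, both on the minus strand. Cldn7 lies at chr11:69964779-69967885 and Cldn10 at chr14:118787908-118875489, both on the plus strand. The last exon bases of Cldn3 overlap the antisense gene Wbscr25, which has 1409 counts in all libraries together against 211701 for Cldn3. The sources used here do not say whether the counting used strand.

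The 250 bases before a start site are shown for the 5 genes on which the results turn. These are the pairs that moved alike, Cldn1 with Cldn3 and Cldn7 with Cldn12, and Cldn4, which moved with the batch. The sequences are those of RefSeq on GRCm38.p6, which held 6 of the 7 genes (all but Cldn8). Each is written along the strand of its gene. That source holds 2 promoters for Cldn7, 2 for Cldn10 and 3 for Cldn12. The other promoters of these genes are not among the windows described here. The windows are chr16:26371840-26372089 (minus) for Cldn1, chr5:134985964-134986213 (plus) for Cldn3, chr5:134946935-134947184 (minus) for Cldn4, chr11:69964529-69964778 (plus) for Cldn7 and chr5:5514977-5515226 (minus) for Cldn12. Capitals mark matches, on either strand, to the letters searched: GGGCGG (GC box), TGANTCA (AP-1 motif), CCGGAA (ETS motif) and CAGGTG (E-box).
Cldn1: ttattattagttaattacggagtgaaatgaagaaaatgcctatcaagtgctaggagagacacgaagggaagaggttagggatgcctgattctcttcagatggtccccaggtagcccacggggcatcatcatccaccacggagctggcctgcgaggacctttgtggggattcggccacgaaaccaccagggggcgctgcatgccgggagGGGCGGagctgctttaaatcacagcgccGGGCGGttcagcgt
Cldn3: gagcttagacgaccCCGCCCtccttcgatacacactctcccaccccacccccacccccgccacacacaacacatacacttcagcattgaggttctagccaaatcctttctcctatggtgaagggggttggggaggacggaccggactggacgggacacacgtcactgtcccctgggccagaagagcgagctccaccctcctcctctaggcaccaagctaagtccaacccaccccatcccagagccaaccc
Cldn4: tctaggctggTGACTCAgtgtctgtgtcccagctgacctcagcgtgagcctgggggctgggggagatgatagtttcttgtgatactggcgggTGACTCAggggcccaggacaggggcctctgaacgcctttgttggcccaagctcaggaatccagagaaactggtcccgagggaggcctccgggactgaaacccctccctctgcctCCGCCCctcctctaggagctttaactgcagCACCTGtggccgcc
Cldn7: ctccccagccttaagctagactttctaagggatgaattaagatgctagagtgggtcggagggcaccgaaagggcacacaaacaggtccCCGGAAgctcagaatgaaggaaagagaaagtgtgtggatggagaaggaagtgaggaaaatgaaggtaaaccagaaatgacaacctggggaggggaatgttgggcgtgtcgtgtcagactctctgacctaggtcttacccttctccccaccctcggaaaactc
Cldn12: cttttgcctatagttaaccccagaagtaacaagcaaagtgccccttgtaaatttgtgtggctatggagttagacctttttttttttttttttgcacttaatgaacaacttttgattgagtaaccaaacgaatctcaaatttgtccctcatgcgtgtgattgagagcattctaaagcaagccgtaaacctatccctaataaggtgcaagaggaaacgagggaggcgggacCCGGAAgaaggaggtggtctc

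Cldn4 was the one of the 6 windows with the AP-1 letters, which it holds at 240 and 158 bases before the start, and 6.75% of 32851 mouse promoters of the same length hold them. It also has an E-box 14 bases and a GC box 44 bases before the start, found in 17.2% and 32.7% of all promoters. Cldn7 and Cldn12 each hold the ETS letters, at 162 and 21 bases before the start, as do 12.03% of all promoters. Cldn1 holds GC boxes at 42 and 14 bases before the start and Cldn3 holds one at 236 bases. The letters CTTTGAT, which TCF/LEF factors of the Wnt pathway bind, are in 3.21% of promoters and in none of the 6 windows. No other spelling of the TCF/LEF letters was searched. The TATA letters TATAAA (12.4% of promoters) and the grainyhead letters AACNNGTT (3.64%) are also in none of the 6. The motifs did not overlap one another, and a match is a description of the letters only. The share of G and C in these windows was 62.0% for Cldn4, 60.8% for Cldn3 and 55.6% for Cldn1. It was 51.2% for Cldn7, 42.0% for Cldn12 and 36.0% for Cldn10, against a median of 52.4% over all promoters.

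The libraries held 24290097 to 31269899 counts. Rasgrp1, the deleted gene, was low throughout: it had 0 to 9 counts in the KO libraries, 5 of which were at 0, and 6 to 28 counts in the WT libraries. Its change of -2.71 ± 0.72 (log2, SE) had an adjusted p of 0.173 and an unadjusted p of 0.00158. Luminal keratin Krt8 (706 to 970 CPM in ERW medium, 530 to 1082 in EGF medium and 477 to 812 in RW medium) and basal keratin Krt14 (1347 to 2436, 1155 to 2092 and 2346 to 3542 CPM in the same media) were detected in every library, as the label of mammary epithelium requires. CPM are counts scaled to the TMM-adjusted library size. The 3 KO libraries of batch 2 stood apart from all others in Cldn4 and in 7 of 12 stress response genes, with no count over all genes beside it. Claudin calls over both genotypes that change without these libraries are given both ways. Results within KO organoids and the correlations are given with these libraries only. Markers of fibroblasts, adipocytes, endothelium and myeloid cells were present too, and their values stand beside the results they move with.

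Per length of transcript, Cldn3 was the most abundant of the 7 genes, with a mean of 329 CPM per kb of exon over the 18 libraries. Cldn7 (102 CPM per kb) and Cldn4 (94.8) came next and were not separated from each other, since Cldn7 was the higher in 12 of 18 libraries. Cldn1 followed with 20.2 CPM per kb, below Cldn4 in every library, then Cldn8 with 10.5, Cldn12 with 7.43 and Cldn10 with 1.12. Cldn8 was above Cldn12 in 16 of 18 libraries, and the other neighbours in this order kept it in 18 of 18. Cldn3 therefore made up 57.9% of the summed claudin level on this scale, Cldn7 18.8%, Cldn4 16.2% and Cldn1 3.61%. Cldn10 rests on 34 to 180 counts per library and is measured least precisely.

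The summed level of the 7 claudins was 612 ± 151 CPM per kb in ERW medium (SD, n = 6), 507 ± 152 in EGF medium and 576 ± 141 in RW medium, ranges that overlap. Within each batch and genotype it was highest in ERW medium and lowest in EGF medium in 6 of 6 sets of libraries, with no test run on the sum. Between batches the sum was 401 ± 51.6 CPM per kb in batch 1, 662 ± 126 in batch 2 and 633 ± 70.7 in batch 3 (SD, n = 6 each). The share of Cldn7 in that sum was 19.4% in ERW medium, 21.9% in EGF medium and 15.1% in RW medium, and that of Cldn3 was 59.2%, 53.9% and 60.5%.

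**Figure D1:**
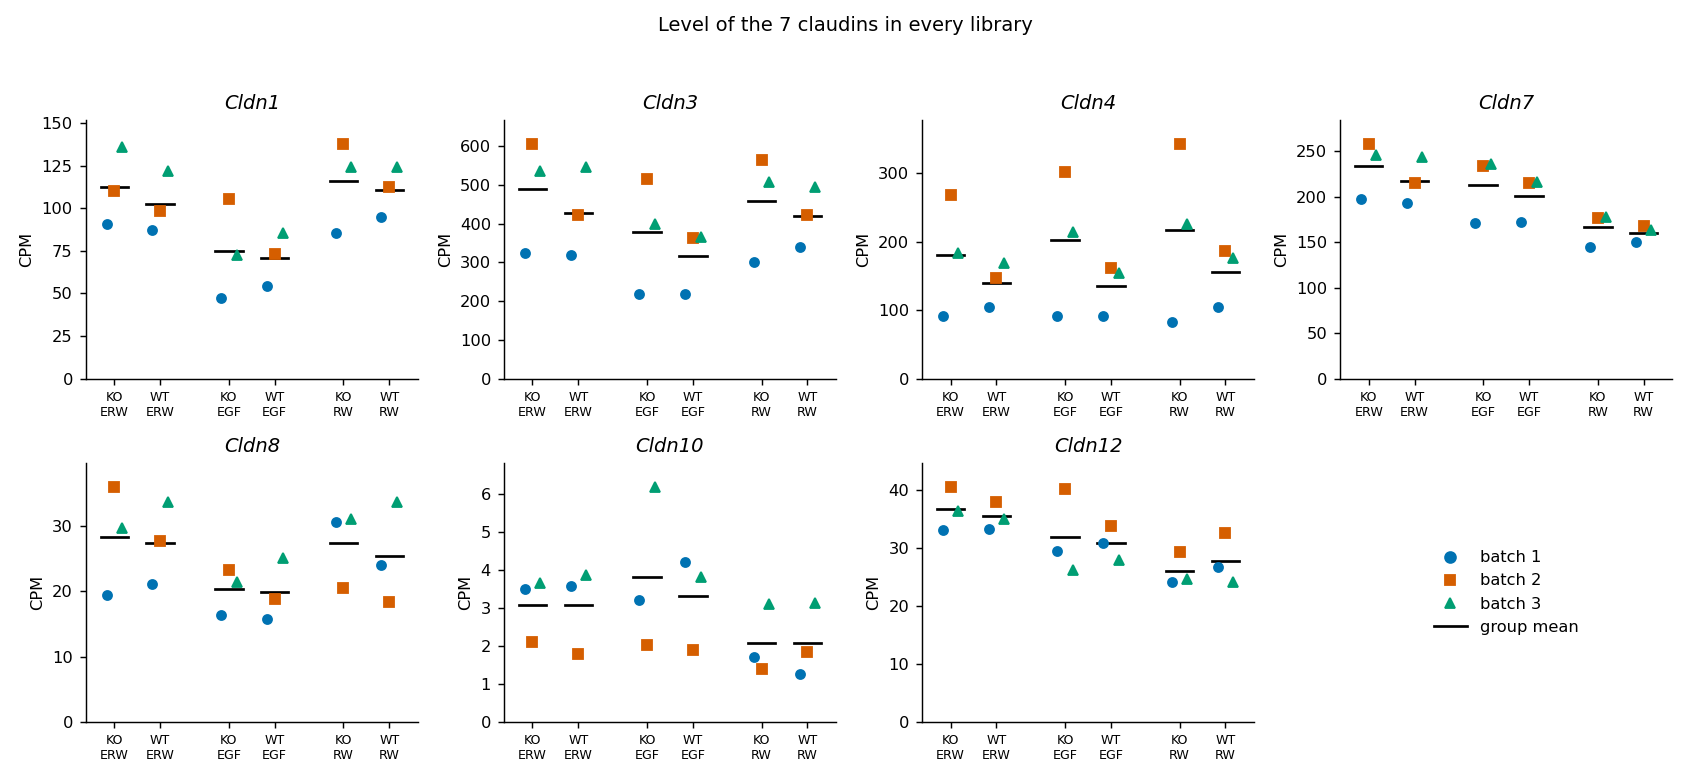
Level of each of the 7 claudins in CPM (y axis) in every library, by medium and genotype (x axis), with KO left of WT, markers for batches 1 to 3 and a line at the mean of each group of 3. The group means of Cldn7 and Cldn12 are lowest in RW medium, those of Cldn1 are lowest in EGF medium, and the batch 1 library is the lowest of its group for Cldn1, Cldn3, Cldn4 and Cldn7 in all 6 groups.

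The first comparison set EGF medium against RW medium over both genotypes. It found 5 of the 7 claudins called at an adjusted p under 0.05, 3 higher and 2 lower, where 25.5% of all 17092 tested genes were called (12.9% higher and 12.5% lower). The median log2 change was -0.13 over the 7 claudins and -0.015 over all tested genes. The count of 5 became 3 without the KO RW library of batch 1 or the WT EGF library of batch 1, and 2 without the batch term. All values below are the fitted log2 change with its standard error and the adjusted p of edgeR's quasi-likelihood test over all tested genes.

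Cldn7, which binds EpCAM at the side of epithelial cells, had 171, 215 and 235 CPM in EGF medium (lowest, median and highest of 6 libraries), against 145, 165 and 177 CPM in RW medium. The EGF libraries were mostly above the RW libraries, and their batch 1 values fell within the RW range. Within each batch and genotype the EGF library was the higher in 6 of 6 pairs. Cldn7 rose by 0.34 ± 0.05 (adjusted p = 4.68e-05), with within-batch means of 0.22, 0.38 and 0.41 in batches 1 to 3. It rose by 0.35 in KO organoids (adjusted p = 0.00177; 13.5% of all genes called) and by 0.32 in WT organoids (adjusted p = 0.00349; 15.4% called).

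Cldn1, the claudin whose loss in mice opens the barrier of the skin, went the other way. It had 47.5, 72.9 and 105 CPM in EGF medium (lowest, median, highest), against 85.3, 118 and 138 CPM in RW medium. The EGF libraries were the lower ones in 6 of 6 pairs, though the ranges overlapped. Cldn1 was lower by 0.65 on the log2 scale (change -0.65 ± 0.11, adjusted p = 2.77e-04), with within-batch means of -0.82, -0.50 and -0.66. The change was -0.64 in KO organoids (adjusted p = 0.00879) and -0.66 in WT organoids (adjusted p = 0.00681).

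Cldn3, which with Cldn4 serves as a receptor of the Clostridium perfringens enterotoxin, had 219, 364 and 514 CPM in EGF medium, against 300.3, 458 and 564 CPM in RW medium. It too was the lower in 6 of 6 pairs, by less than the distance between batches. The change was -0.37 ± 0.09 (adjusted p = 0.00746), with within-batch means of -0.54, -0.18 and -0.39. In KO organoids the change was -0.30 (adjusted p = 0.165) and in WT organoids -0.44 (adjusted p = 0.0324), and their difference was not called. The adjusted p of Cldn3 over both genotypes was 0.0856 without batch 1, 0.124 without batch 3 and 0.436 without the batch term.

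Cldn10, a pore-forming claudin, and Cldn12, a member without the tail motif that ties most claudins to the scaffold of the junction, were called by narrower margins. Cldn10 had 1.89, 3.51 and 6.19 CPM in EGF medium, against 1.25, 1.77 and 3.12 CPM in RW medium, and was the higher in 6 of 6 pairs. Its change was 0.75 ± 0.23 (adjusted p = 0.0225), and within 1 genotype it did not pass (0.83 in KO, adjusted p = 0.107; 0.66 in WT, adjusted p = 0.207). The call was lost without the EGF library of batch 3 in KO (adjusted p = 0.0951), without the RW library of batch 1 in KO (0.0638) and, in WT, without the EGF (0.0695) or the RW (0.0704) library of batch 1. It was also lost without batch 1 (0.227) or batch 3 (0.192).

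Cldn12 had 26.3, 30.1 and 40.1 CPM in EGF medium, against 24.1, 25.6 and 32.6 CPM in RW medium. The ranges overlapped over most of their length, while the EGF library was the higher in 6 of 6 pairs. Its change was 0.22 ± 0.07 (adjusted p = 0.0288), with 0.29 in KO (adjusted p = 0.0706) and 0.15 in WT organoids (adjusted p = 0.373), neither called. The call was lost, with an adjusted p for Cldn12 of 0.104, without the KO EGF library of batch 2. It was lost as well without the RW library of batch 1 (0.0602) or batch 2 (0.0508) in KO, and in WT without the EGF library of batch 1 (0.0699) or the RW library of batch 3 (0.0811). Without batch 1, 2 or 3 the adjusted p was 0.167, 0.0997 and 0.100, and without the filter on low counts it was 0.0563.

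Cldn8 and Cldn4, which in the kidney work together in a path for chloride between cells, were not called. Cldn8 had 15.8, 20.2 and 25.1 CPM in EGF medium, against 18.3, 27.4 and 33.7 CPM in RW medium, a change of -0.40 ± 0.15 (adjusted p = 0.0721). Its within-batch means of -0.76, 0.11 and -0.48 differ in sign, and without batch 2 the change was -0.62 with an adjusted p of 0.00201. Leaving out the batch 2 library of KO RW (adjusted p = 0.0210), of WT RW (0.0181) or of KO ERW (0.0391) also brought Cldn8 under the threshold, as did DESeq2 (0.0441). Cldn4 had 91.9, 158 and 301 CPM in EGF medium, against 82.9, 181 and 344 CPM in RW medium, with a change of -0.13 ± 0.17 (adjusted p = 0.643).

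**Figure D2:**
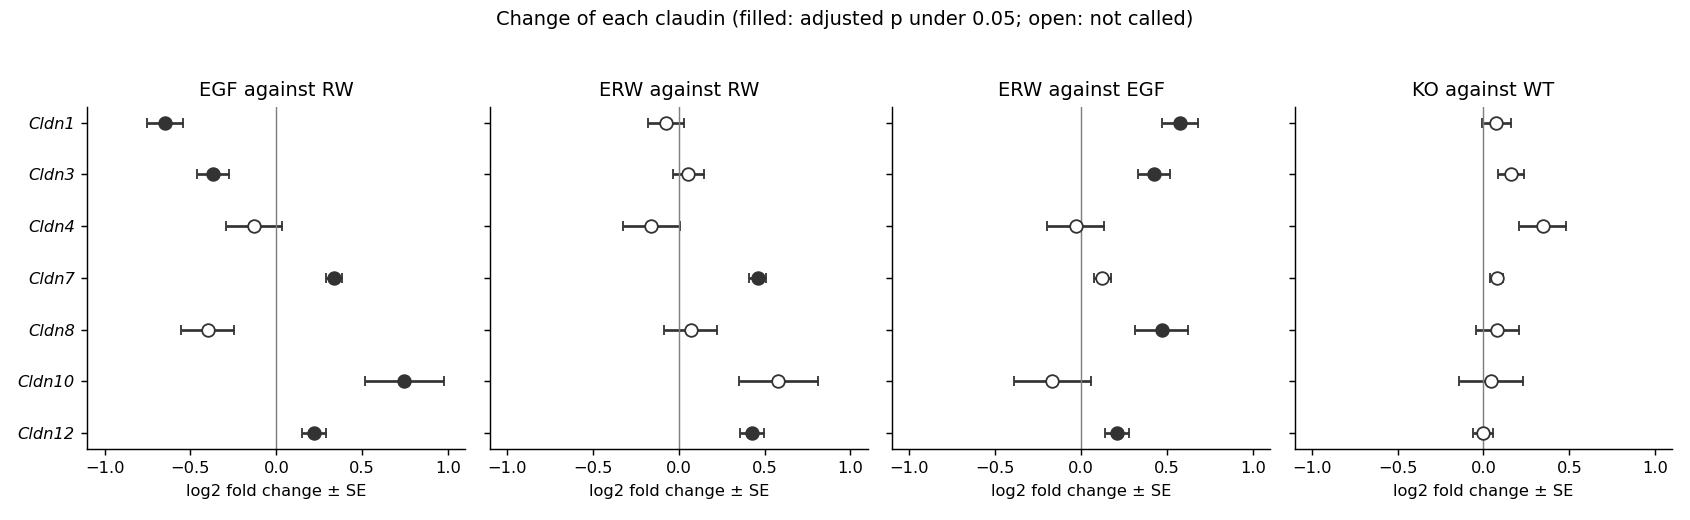
Fitted log2 change (x axis) of the 7 claudins with its standard error, for EGF against RW, ERW against RW, ERW against EGF and KO against WT, with filled points where the adjusted p is under 0.05. Cldn7 and Cldn12 lie to the right of 0 in both comparisons with RW medium, Cldn1 and Cldn3 lie left of 0 in the first and right of 0 in ERW against EGF, and no point of KO against WT is filled.

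ERW medium differs from RW medium by the EGF alone. In this comparison 2 of 7 claudins were called, both higher, where 22.9% of all tested genes were called (11% higher and 11.9% lower). Cldn7 had 193, 229 and 258 CPM in ERW medium (lowest, median, highest of 6), against 145, 165 and 177 CPM in RW medium. Cldn12 had 33.0, 35.7 and 40.5 CPM in ERW medium, against 24.1, 25.6 and 32.6 CPM in RW medium. For both genes every ERW library lay above every RW library. The share of all tested genes that separate in this way was not counted. Cldn7 rose by 0.46 ± 0.05 (adjusted p = 2.74e-06), by 0.40, 0.45 and 0.52 within batches 1 to 3. Cldn12 rose by 0.43 ± 0.07 (adjusted p = 2.21e-04), by 0.39, 0.34 and 0.55 within batches. Within KO organoids, where 12.7% of all genes were called, Cldn7 had a change of 0.49 (adjusted p = 1.59e-04) and Cldn12 one of 0.50 (adjusted p = 0.00262). Within WT organoids, where 10.7% were called, they had 0.43 (adjusted p = 4.92e-04) and 0.36 (adjusted p = 0.0258).

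The other 5 did not pass. Cldn1 had 87.0, 104 and 136 CPM in ERW medium, against 85.3, 118 and 138 CPM in RW medium (change -0.07, adjusted p = 0.695), and Cldn3 had 318, 479.6 and 607 CPM against 300.3, 458 and 564 CPM (change 0.06, adjusted p = 0.732). The ranges of both genes nearly coincide. Cldn10 had a change of 0.58 (adjusted p = 0.0813), which became 0.72 with an adjusted p of 0.0402 without the WT RW library of batch 2. Cldn4 (-0.16, adjusted p = 0.562) and Cldn8 (0.07, adjusted p = 0.808) did not pass. For Cldn8 the within-batch means were -0.42, 0.70 and -0.03, and the value without the KO libraries of batch 2 was -0.12.

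ERW medium differs from EGF medium by NGS-Wnt and Rspo2. Here 4 of 7 claudins were called, all 4 higher, where 27.9% of all tested genes were called (13.4% higher and 14.5% lower). The 3 comparisons of media share their libraries in pairs, so they are not independent of one another. Cldn1 had 87.0, 104 and 136 CPM in ERW medium, against 47.5, 72.9 and 105 CPM in EGF medium, and was the higher in 6 of 6 pairs. Its within-batch means were 0.81, 0.25 and 0.71 in batches 1 to 3, and the KO pair of batch 2 differed by 0.06. Cldn1 rose by 0.58 ± 0.11 (adjusted p = 9.01e-04), by 0.61 in KO organoids (adjusted p = 0.0164; 11.6% of all genes called) and by 0.54 in WT organoids (adjusted p = 0.0231; 15.6% called). Cldn3 had 318, 479.6 and 607 CPM in ERW medium, against 219, 364 and 514 CPM in EGF medium, and was likewise the higher in 6 of 6 pairs. Its within-batch means were 0.55, 0.23 and 0.50. Cldn3 rose by 0.43 ± 0.09 (adjusted p = 0.00293), with 0.40 in KO (adjusted p = 0.0627) and 0.45 in WT organoids (adjusted p = 0.0286). Leaving out batch 3 left 1 of the 4 calls, that of Cldn1, and gave Cldn3 an adjusted p of 0.101.

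Cldn8 had 19.4, 28.7 and 36.1 CPM in ERW medium, against 15.8, 20.2 and 25.1 CPM in EGF medium, and Cldn12 had 33.0, 35.7 and 40.5 CPM against 26.3, 30.1 and 40.1 CPM. Both were the higher in 6 of 6 pairs, with overlapping ranges. Cldn8 rose by 0.47 ± 0.15 (adjusted p = 0.0327), and Cldn12 rose by 0.21 ± 0.07 (adjusted p = 0.0333). Neither passed within 1 genotype, with 0.48 in KO (adjusted p = 0.186) and 0.46 in WT organoids (adjusted p = 0.177) for Cldn8, and 0.21 in KO (adjusted p = 0.187) and 0.21 in WT organoids (adjusted p = 0.185) for Cldn12. Without the filter on low counts neither passed (adjusted p = 0.0569 for Cldn8 and 0.0508 for Cldn12), nor did they without batch 1 (0.05003 for Cldn8, just above the threshold, and 0.110 for Cldn12) or without batch 3 (0.199 for Cldn8 and 0.504 for Cldn12). Leaving out single libraries ended these calls more often than any other call over both genotypes: that of Cldn8 was kept in 10 of the 18 fits that leave out 1 library, and that of Cldn12 in 11. For Cldn8 the adjusted p was 0.0753 without KO EGF batch 1, 0.0880 without KO EGF batch 3, 0.102 without KO ERW batch 2, 0.0761, 0.0716 and 0.0511 without WT EGF batch 1, 2 or 3, and 0.0736 and 0.0754 without WT ERW batch 2 or 3. For Cldn12 it was 0.0691 and 0.117 without KO EGF batch 1 or 3, 0.101 without KO ERW batch 3, 0.0775 and 0.0825 without WT EGF batch 2 or 3, and 0.0591 and 0.101 without WT ERW batch 1 or 3. Without the batch term, none of the 4 passed, with adjusted p of 0.0621 for Cldn1, 0.138 for Cldn8, 0.299 for Cldn3 and 0.306 for Cldn12.

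Cldn7 had 193, 229 and 258 CPM in ERW medium, against 171, 215 and 235 CPM in EGF medium, a change of 0.12 that missed the threshold (adjusted p = 0.0652) and passed without the WT ERW library of batch 2 (0.15, adjusted p = 0.0334). Cldn4 (-0.03, adjusted p = 0.920) and Cldn10 (-0.17, adjusted p = 0.642) did not pass.

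Cldn7 and Cldn1 thus had a different ratio in each medium, although both are counted in the same libraries. The CPM of Cldn7 over that of Cldn1 averaged 2.11 ± 0.19 in ERW medium (SD, n = 6, 1.80 to 2.34), 2.95 ± 0.51 in EGF medium (2.21 to 3.60) and 1.46 ± 0.16 in RW medium (1.28 to 1.70). The ranges of ERW and RW medium did not overlap, nor did those of EGF and RW medium, while those of ERW and EGF medium overlapped. This ratio was formed after the values were seen and carries no test.

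Marker genes of the epithelial layers moved between the media as well. In bulk RNA, fewer cells of a type and less RNA per cell cannot be told apart. The counts of the gene lists that follow stand against the shares of all tested genes given above, which were 12.9% higher and 12.5% lower in EGF against RW medium, 11% higher and 11.9% lower in ERW against RW medium, and 13.4% higher and 14.5% lower in ERW against EGF medium. Of 10 luminal markers, 5 rose and 1 fell in EGF against RW medium, and 6 rose and 1 fell in ERW against RW medium. Their summed level was 4616 to 5438 CPM in ERW, 4314 to 6462 CPM in EGF and 4214 to 5387 CPM in RW medium. Cd14 (1.53), Foxa1 (0.89) and Prom1 (0.67) rose most among them in EGF against RW medium, while Krt19 fell (-0.36). Of 8 basal markers, 1 rose and 4 fell in EGF against RW medium and 7 fell in ERW against RW medium, with sums of 4150 to 6280 CPM in ERW, 3834 to 5302 CPM in EGF and 6641 to 9563 CPM in RW medium. The keratins Krt17 (-2.63), Krt5 (-1.15) and Krt14 (-0.97) fell most in EGF against RW medium, while Oxtr rose (0.73). Of 12 cornified epidermal markers, 11 were tested and 10 fell in both comparisons, with sums of 136 to 252 CPM in ERW, 74.8 to 174 CPM in EGF and 412 to 1619 CPM in RW medium. In ERW against EGF medium 1 luminal marker rose and 2 fell, and 4 basal markers rose and 3 fell. The basal keratins Krt17 (1.51), Krt5 (0.57) and Krt14 (0.32) rose there, while Myh11 (-1.24), Mylk (-0.86) and Acta2 (-0.78) fell. Of the 11 cornified markers tested, 6 rose and 0 fell in that comparison. The part of these shifts in the claudin changes was not tested.

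Markers of non-epithelial cells were lower in ERW medium. All 5 adipocyte markers and all 5 endothelial markers fell in ERW against RW and in ERW against EGF medium. The adipocyte sum was 69.5 to 461 CPM in ERW, 346 to 1241 CPM in EGF and 351 to 1884 CPM in RW medium, and the endothelial sum was 70.1 to 185, 248 to 397 and 232 to 547 CPM. Of 6 fibroblast markers, 5 fell in ERW against RW medium and 6 fell in ERW against EGF medium, with sums of 355 to 1045, 654 to 2595 and 581 to 2181 CPM in ERW, EGF and RW medium. Of 5 myeloid markers, 3 fell in ERW against RW medium and 2 fell in ERW against EGF medium, with sums of 8.52 to 26.8, 17.5 to 146 and 24.4 to 67.8 CPM. In EGF against RW medium 2 fibroblast markers rose, 2 adipocyte markers fell, and no endothelial or myeloid marker passed. None of the markers in these 4 lists was at 0 in all libraries, and the part of these cells in the claudin values was not tested.

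Cldn4 showed the widest spread between batches. In KO organoids it had 91.1, 268 and 183 CPM in ERW medium (batches 1, 2 and 3), 91.9, 301 and 214 CPM in EGF medium and 82.9, 344 and 226 CPM in RW medium. In WT organoids it had 104, 147 and 169.6 CPM in ERW medium, 92.0, 162 and 154 CPM in EGF medium and 105, 186 and 176 CPM in RW medium. Batch 1 was the lowest in all 6 groups, and the batch 2 libraries of KO organoids stood above all 15 others, which reached 226 CPM at most.

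Relative to batch 1, Cldn4 was higher by 1.25 ± 0.17 in batch 2 (adjusted p = 1.31e-04) and by 0.95 ± 0.17 in batch 3 (adjusted p = 9.28e-04), on the log2 scale. These values are taken over both genotypes, and the high KO libraries of batch 2 raise the first of them. Within batches 1 to 3, KO against WT averaged -0.18, 0.88 and 0.31 for Cldn4. The comparisons of batches were not run without the KO libraries of batch 2. Of all tested genes, 40.9% were called between batches 2 and 1 and 36.2% between batches 3 and 1. Cldn3, Cldn1 and Cldn7 were also called in both comparisons of batches, with 0.75 and 0.73 for Cldn3, 0.50 and 0.54 for Cldn1 and 0.29 and 0.31 for Cldn7. The batch took 76.4% of the variance of log2 CPM of Cldn4 over the 18 libraries, the genotype 7.69% and the medium 1.16%. For Cldn7 the medium took 60.4% and the batch 31.9%, and for Cldn1 50.6% and 34.8%. For Cldn3 the batch (66.4%) exceeded the medium (19.5%).

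The comparison of KO with WT organoids called none of the 7 claudins. Over all genes the test called 58, or 0.339% of 17092, while 1842 had an unadjusted p under 0.05, and DESeq2 called 224 genes and none of the 7 claudins. Cldn4 had 82.9, 214 and 344 CPM in KO organoids (lowest, median, highest of 9), against 92.0, 154 and 186 CPM in WT organoids. Its log2 change was 0.34 ± 0.14 (unadjusted p = 0.0276, adjusted p = 0.401), and the KO library was the higher in 6 of 9 pairs. The within-batch means were -0.18, 0.88 and 0.31 in batches 1 to 3. Without the KO libraries of batch 2, a setting added after the data were seen, the change of Cldn4 was 0.07 with an adjusted p of 1.

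Cldn3 averaged 441 ± 135 CPM in KO organoids and 388 ± 97.0 CPM in WT organoids (SD, n = 9 each), with a change of 0.16 ± 0.08 (adjusted p = 0.474). Its within-batch means were -0.05, 0.48 and 0.05, and without the KO libraries of batch 2 the change was -0.01. Cldn1 averaged 101 ± 30.2 CPM in KO and 94.8 ± 22.9 CPM in WT organoids, with within-batch means of -0.10, 0.33 and -0.03. Cldn7 averaged 204 ± 39.7 CPM in KO and 193 ± 31.2 CPM in WT organoids, a change of 0.08 ± 0.04 (adjusted p = 0.499). Cldn8, Cldn10 and Cldn12 had changes of 0.08, 0.04 and -0.002. The test of whether the medium acted differently in KO and WT organoids, an interaction, passed for none of the 7 genes (adjusted p = 1), and edgeR called 0 of 17092 genes in each of the 3 interactions. At an unadjusted p under 0.05 there were 356, 286 and 306 genes for EGF against RW, ERW against RW and ERW against EGF, and DESeq2 called 33, 44 and 41 genes.

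The KO libraries of batch 2, which stood above all 15 others in Cldn4, did so in 7 of 12 genes of the immediate early and stress response as well, a list added after the values were seen. These were Atf3, Csrnp1, Klf4, Jun, Junb, Fosb and Dusp1, while the values of Fos, Egr1, Ier2, Hspa1a and Hspa1b overlapped those of the other libraries. The share of all tested genes in which the KO libraries of batch 2 stand above all others was not counted. Atf3, a stress-induced transcription factor of the family that binds AP-1 letters, had 183, 180 and 380 CPM in the ERW, EGF and RW libraries of KO batch 2, against 41.2, 41.2 and 50.9 CPM in those of WT batch 2, and at most 50.9 CPM anywhere else. Csrnp1, a nuclear protein induced by growth factor signals, had 174, 143 and 289.7 CPM in KO batch 2, against 29.8, 30.5 and 23.8 CPM in WT batch 2. Klf4, a Krüppel-like factor of epithelia, had 234 to 336 CPM in KO batch 2, against 68.9 to 99.1 CPM in WT batch 2. Jun had 1431 to 1540 CPM in KO batch 2 and 809 to 969 CPM in WT batch 2. Egr1, by contrast, had 1012 to 3520.0 CPM in KO batch 2, against 2288 to 2946 CPM in WT batch 2. The summed level of the 12 listed genes was 6839 to 12164 CPM in KO batch 2, 6529 to 7860 CPM in WT batch 2 and 3505 to 6442 CPM in batches 1 and 3, so that in sum KO and WT of batch 2 overlapped. None of the 12 genes passed the test between KO and WT. Without the KO libraries of batch 2, 5 claudins were again called in EGF against RW medium, with Cldn8 (-0.53, adjusted p = 0.00426) among them and Cldn12 (0.18, adjusted p = 0.0833) not. The called genes remained Cldn7 and Cldn12 in ERW against RW medium and Cldn1, Cldn3, Cldn8 and Cldn12 in ERW against EGF medium. The part of the stress response in the Cldn4 values was not tested.

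**Figure D3:**
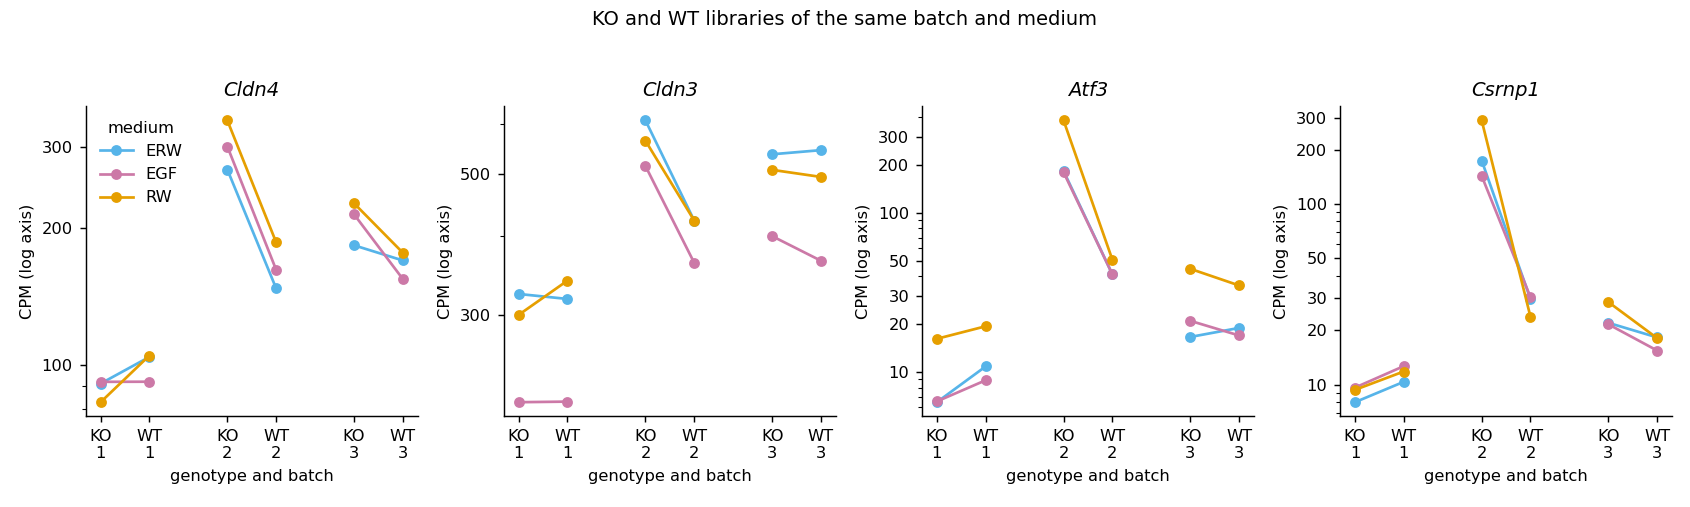
CPM on a log axis (y) of Cldn4, Cldn3, Atf3 and Csrnp1 in each library, with the KO library joined to the WT library of the same batch and medium (x axis: genotype and batch, line colour: medium). In batch 2 each KO point of Cldn4, Atf3 and Csrnp1 lies well above the WT point it is joined to, while the 6 Cldn4 values of batch 1 lie between 82.9 and 105 CPM.

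Among the other membrane proteins of the junction, 7 of 11 rose and 2 fell in EGF against RW medium (12.9% and 12.5% of all genes), with a median log2 change of 0.28. Marveld3, a member of the occludin family, had a change of 0.60 (adjusted p = 1.16e-05), Ildr1, which recruits tricellulin to corners between 3 cells, 0.44 (adjusted p = 2.13e-05) and the adhesion molecule Jam2 0.53 (adjusted p = 0.0490). Ildr2 (-0.84, adjusted p = 0.00450) and Cxadr, the coxsackie and adenovirus receptor (-0.59, adjusted p = 1.04e-06), fell. Ocln, the gene of occludin, did not pass (-0.06, adjusted p = 0.70).

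In ERW against RW medium 5 of the 11 rose and 3 fell (11% and 11.9% of all genes). Marveld3 had a change of 0.74 (adjusted p = 2.37e-06), Lsr, the founding angulin of tricellular junctions, 0.32 (adjusted p = 2.71e-05) and F11r, the gene of a junctional adhesion molecule, 0.18 (adjusted p = 0.0378). Ildr2 (-1.48) and Cxadr (-0.37) fell. In ERW against EGF medium (13.4% and 14.5% of all genes) 1 rose, Cxadr with 0.22, and 4 fell, among them Jam2 (-0.82), Ildr2 (-0.64) and Ildr1 (-0.26). None of the 11 passed between KO and WT.

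Of the 25 cytoplasmic plaque and polarity proteins, 8 rose and 6 fell in EGF against RW medium (12.9% and 12.5% of all genes), with a median log2 change of 0.05. Cgnl1, paracingulin, rose by 0.50, the exchange factor Arhgef2 by 0.35 and the scaffold Magi1 by 0.32. The scaffolds Magi3 (-0.85) and Tjp3 (-0.43) and the transcription factor Ybx3 (-0.33) fell. In ERW against RW medium 4 rose and 2 fell (11% and 11.9% of all genes), in ERW against EGF medium 5 rose and 5 fell (13.4% and 14.5%), and none passed between KO and WT. Tjp3 (0.36), the polarity protein Pard6b (0.33) and cingulin, Cgn (0.32), were those that rose most in ERW against EGF medium. Of 10 adherens junction genes, 2 rose and 2 fell in EGF against RW medium, 1 fell in ERW against RW medium, 2 rose and 2 fell in ERW against EGF medium, and none passed between KO and WT. Cdh1, the gene of E-cadherin, had a change of -0.24 in EGF against RW medium and of 0.14 in ERW against EGF medium, both called.

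EpCAM binds claudins such as Cldn7 and Cldn1, and the membrane protease matriptase (St14), restrained by Spint1 and Spint2, cleaves it. Epcam averaged 1009 ± 77.3 CPM in ERW medium, 1048 ± 90.8 CPM in EGF medium and 793 ± 69.3 CPM in RW medium (SD, n = 6 each). Epcam rose by 0.40 in EGF against RW medium (adjusted p = 3.92e-05) and by 0.35 in ERW against RW medium (adjusted p = 2.16e-04), in the direction of Cldn7. St14 rose by 0.74 and 0.47, and Spint1 by 0.63 and 0.38, in the same comparisons. Spint2 went the other way in EGF against RW medium, with a change of -0.17 (adjusted p = 0.00812). In ERW against EGF medium St14 (-0.27) and Spint1 (-0.26) fell, and the call of Spint1 was lost without batch 2 (adjusted p = 0.0578) or batch 3 (0.154). Of Epcam, St14, Prss8, Spint1 and Spint2, Spint1 alone passed between KO and WT, with a change of 0.39 ± 0.05 (adjusted p = 3.16e-04), where the background is 0.339% of all genes. Whether this change follows from the loss of RasGRP1 or from other differences between the KO and WT mice was not tested. The distance of Spint1 from the deleted gene on the genome was not examined here.

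**Figure D4:**
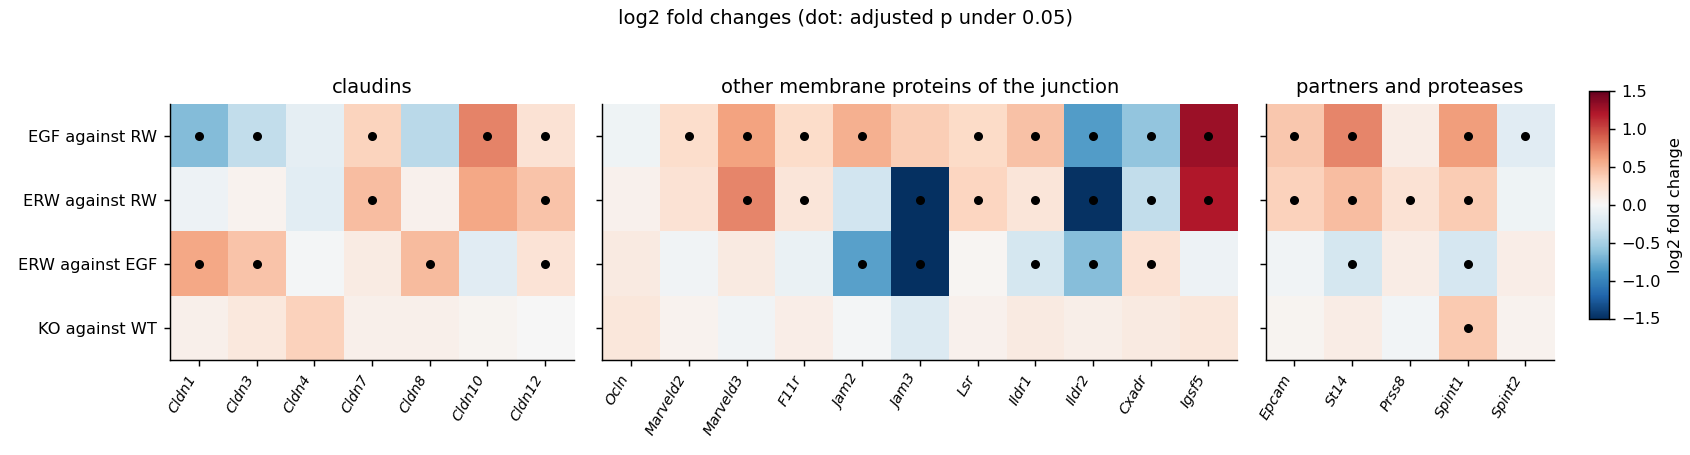
Heat map of the log2 change (colour, saturated at the ends of its scale) of the 7 claudins, 11 other junction membrane proteins and 5 claudin partners and proteases (columns) in 4 comparisons (rows), with a dot where the adjusted p is under 0.05. Cldn7, Cldn12, Marveld3, Lsr, Epcam, St14 and Spint1 are among the genes with dots and positive values in both comparisons with RW medium, and the row of KO against WT holds a single dot, that of Spint1.

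Of 13 transcription factors known to act on epithelial junction genes, 1 rose and 5 fell in EGF against RW medium (12.9% and 12.5% of all genes). Snai1, a repressor of E-cadherin, rose by 1.76, while Klf5 (-1.15), the epithelial ETS factor Ehf (-0.90) and Snai2 (-0.88) fell. In ERW against RW medium Grhl1, a grainyhead factor (0.60), and the ETS factor Elf3 (0.41) were the 2 that rose, and 6 fell, among them the repressors Zeb2 (-1.73), Zeb1 (-1.01) and Snai2 (-0.58). In ERW against EGF medium 5 rose, led by Ehf (0.63), Klf5 (0.62) and Grhl1 (0.52), and 3 fell, which were Zeb2 (-1.75), Snai1 (-1.46) and Zeb1 (-1.12). The fibroblast markers, which fell with Zeb1 and Zeb2 in ERW medium, have the values given above. None of the 13 passed between KO and WT.

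Of the other 30 claudin and claudin-domain genes of the table, 15 were at 0 in every library and 9 passed the filter on low counts. Cldn2, which forms pores for cations and water, had larger log2 changes against RW medium than any of the 7 epithelial claudins. It had 19.3, 42.9 and 86.6 CPM in ERW medium (lowest, median, highest of 6), 23.2, 48.2 and 66.6 CPM in EGF medium and 2.35, 5.51 and 7.34 CPM in RW medium, so that all 12 libraries with EGF lay above all 6 without it. How many of all tested genes separate in this way was not counted. Cldn2 rose by 3.17 ± 0.14 in ERW against RW medium (adjusted p = 1.14e-10) and by 3.20 ± 0.14 in EGF against RW medium (adjusted p = 5.20e-11), with -0.03 in ERW against EGF medium (adjusted p = 0.905) and 0.14 in KO against WT (adjusted p = 0.648). The within-batch means were 3.48, 2.99 and 2.94 in ERW against RW medium and 3.20, 3.21 and 3.11 in EGF against RW medium.

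Cldn5, the main claudin of endothelium, fell in ERW against RW medium (-1.39, adjusted p = 4.80e-05) and in ERW against EGF medium (-1.40, adjusted p = 5.77e-05), with 4.63 to 20.5 CPM in ERW, 17.2 to 34.9 CPM in EGF and 16.6 to 50.0 CPM in RW medium. The 5 endothelial markers fell in the same comparisons. Cldn15 fell in both as well, by 1.71 and 0.96 on the log2 scale (adjusted p = 4.25e-04 and 0.0244). Cldn23 (0.57, adjusted p = 0.00642) and Cldn6 (0.77, adjusted p = 0.0393) rose in EGF against RW medium. Cldn15 and Cldn6 were low, with 0.28 to 3.43 and 0.55 to 4.09 CPM per kb of exon over all libraries, and Cldn23 had 4.50 to 12.7. The calls of Cldn15 in ERW against EGF medium (adjusted p = 0.193 without batch 1), of Cldn6 (0.209 without batch 3) and of Cldn23 (0.205 without batch 3) were among those lost when a batch was left out. Cldnd1, a claudin-domain gene, ran from 65.6 to 89.7 CPM over all libraries and passed in none of these comparisons. None of the 9 passed between KO and WT.

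**Figure D5:**
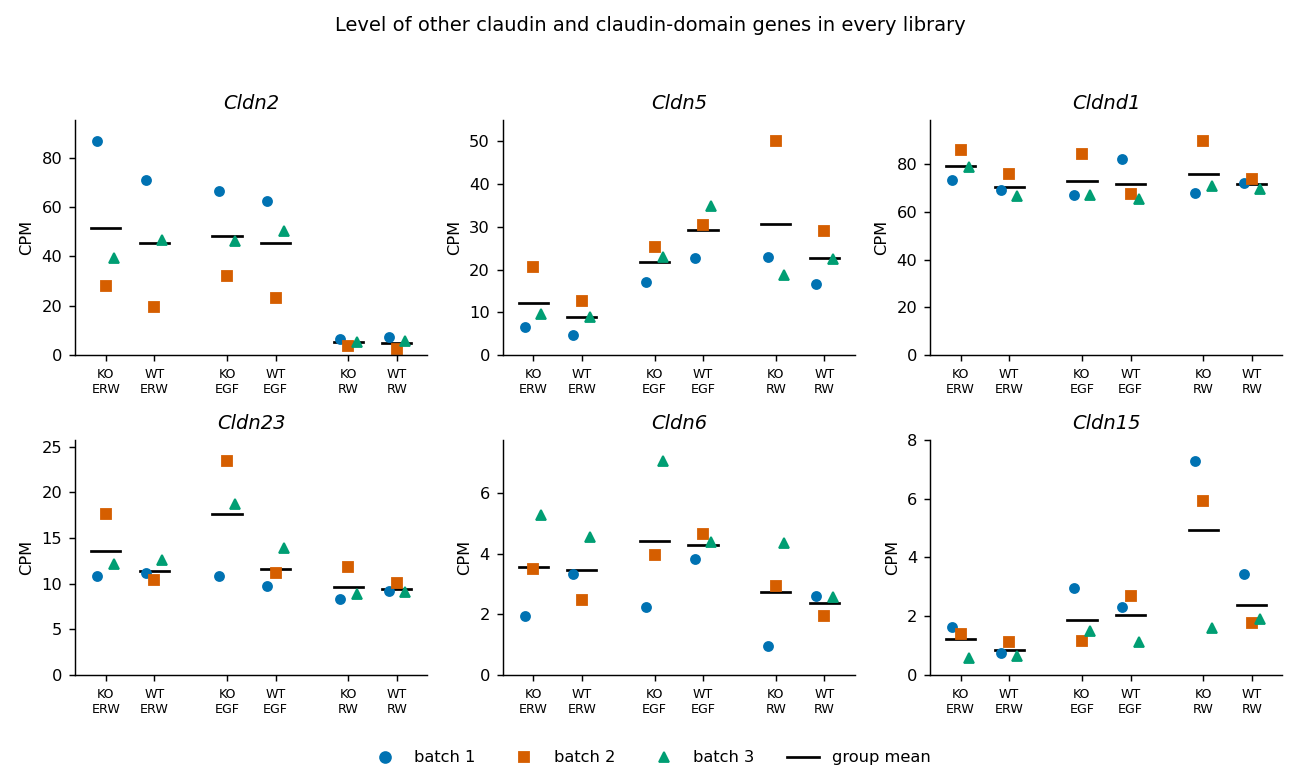
CPM (y axis) of 6 other claudin and claudin-domain genes in every library, by medium and genotype (x axis), with KO left of WT and a line at each group mean. Cldn2 runs from 19.3 to 86.6 CPM in the media with EGF and from 2.35 to 7.34 CPM in RW medium, and Cldn5 is lowest in ERW medium.

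With the batch means removed, the members formed pairs over the 18 libraries. Cldn1 and Cldn3 had a Pearson r of 0.884 and Cldn7 and Cldn12 one of 0.859, while Cldn3 and Cldn8 had 0.680, Cldn7 and Cldn10 0.614 and Cldn1 and Cldn10 -0.566. These points share libraries, media and depth, and the values are descriptions. Among 14607 genes searched, those most like Cldn7 were Fam3c (r = 0.968), Lsr (0.963) and Nipsnap1 (0.962), and those most like Cldn1 were Ism1 (0.953), Eif3e (0.933) and Naca (0.922). Cldn3 was most like Rnf217 (0.929), Tm9sf4 (0.909) and Btf3 (0.903), and Cldn12 most like Faim2 (0.960), Alg9 (0.948) and Rab1b (0.941). For Cldn4 they were Ino80 (0.955), Tubb2a (0.924) and Bhlhe40 (0.913), for Cldn8 Taf8 (0.918), Chd3 (0.850) and Mrps9 (0.828), and for Cldn10 Phlda2 (0.874), Rnf115 (0.871) and Cbfb (0.861). Removing batch means leaves the gap between KO and WT within batch 2, which averaged 0.88 for Cldn4. How far the genes most like Cldn4 rest on those KO libraries was not tested.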

How the data were processed

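The authors deposited a table of raw read counts per Ensembl gene, and per the submitters' processing notes STAR, DESeq2 and GRCm38 were used; their versions, the annotation release, the counting tool and its strand setting are not stated in the sources used here. Their second deposited table gives, per the file headers, the authors' log2 fold changes and adjusted p-values, which were used only to compare: of 63 deposited values of the 7 claudins, 63 had the sign found here (largest log2 difference 0.00976, with signs turned to match), 12 were called in both and 2 in the authors' deposited table alone. No value column was without a sample of the study (0 columns).

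Here the counts were fitted with edgeR 4.0.16 (R 4.3.3, limma 3.58.1): TMM scaling, filterByExpr (minimum count 10, minimum total 15; 17092 of 55536 genes kept, all 7 claudins among them), 1 mean per group plus the batch, robust quasi-likelihood F-test, 2-sided, Benjamini-Hochberg over all tested genes, called at 0.05. The procedure was checked on simulated counts. The labels call the 3 libraries of a group biological replicates without naming cultures or animals, so p-values measure the spread between these samples. The batch is a label; over 45 pairs of libraries from the same batch the deviations from the group means correlated at 0.175 to 0.453, and over 90 pairs from different batches at -0.285 to -0.00488. Levels are CPM, or CPM per kb of exon from GENCODE M21; within-batch values and correlations use log2 CPM with a prior count of 2. Depth of 24290097 to 31269899 counts per library limits mainly Cldn10.

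The members and lists were chosen with earlier results of these data known. Named genes are the 7 members, other claudins of 1 CPM or more, the 3 genes most like each member, and of each list up to 3 called genes per direction and comparison of 4 CPM or more, and list genes called in KO against WT; Krt8, Ocln and the stress genes were named after their values were seen. 1 gene of the list of claudin partners is not reported here. Alternatives were no batch term, RLE size factors, DESeq2 1.42.0, no filter on low counts, and leaving out each library and each batch; leaving out the KO libraries of batch 2 was added after the data were seen.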

Additional observations from a re-analysis of the deposited data

Results flagged for a closer look

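Cldn10 had 6.19 CPM in the KO EGF library of batch 3, the highest of the 9 KO libraries, and its gap to the next library (3.65 CPM) took 0.53 of the whole range of the KO libraries. Of 35 groups of 4 to 10 samples examined for such gaps this was the 1 found, and chance marks about 1 group in 20.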

How the results depend on the processing

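The calls of Cldn1 in EGF against RW medium, of Cldn7 in EGF against RW and ERW against RW medium, and of Cldn12 in ERW against RW medium, over both genotypes, held under every alternative run. Without the replicate block the claudins called were 2 of 7 in EGF against RW medium (5 with it) and 0 in ERW against EGF medium (4 with it), and the genes called were 2022 (4355 with it), 1730 (3921) in ERW against RW medium, 1743 (4771) in ERW against EGF medium and 22 (58) in KO against WT. Without the filter on low counts, 2 claudins were called in ERW against EGF medium. DESeq2 called 224 genes in KO against WT, and 33, 44 and 41 in the interactions of EGF against RW, ERW against RW and ERW against EGF, where edgeR called 0. Leaving out 1 library gave 3 to 6 claudins and 3640 to 4405 genes in EGF against RW medium, 2 to 3 and 3258 to 3939 in ERW against RW medium, 2 to 4 and 3652 to 4943 in ERW against EGF medium, and 42 to 73 genes in KO against WT. Leaving out 1 batch gave 2 to 5 claudins and 2134 to 3765 genes, 2 claudins and 2299 to 3357 genes, 1 to 4 claudins and 1874 to 3958 genes, and 19 to 90 genes in the same 4 comparisons. No claudin was called in KO against WT or in an interaction under any alternative.

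Signs turned only for values that were not called. Without the KO libraries of batch 2, in KO against WT Cldn1 had -0.0678, Cldn3 -0.00747 and Cldn8 -0.0457, Cldn4 in RW medium -0.0182, and Cldn8 in ERW against RW medium -0.12. Cldn12 in KO against WT had 0.00178 without the block, 0.00254 with RLE size factors and 0.00275 with DESeq2. With 1 library, 1 batch or the KO libraries of batch 2 left out, the log2 changes in KO against WT ran over -0.0678 to 0.15 for Cldn1, -0.00747 to 0.26 for Cldn3, -0.0457 to 0.21 for Cldn8, -0.0535 to 0.14 for Cldn10 and -0.041 to 0.0268 for Cldn12. In ERW against RW medium they ran over -0.13 to 0.0191 for Cldn1, -0.00631 to 0.12 for Cldn3 and -0.23 to 0.32 for Cldn8, for Cldn4 in ERW against EGF medium over -0.14 to 0.0764, and for Cldn4 between KO and WT over -0.0551 to 0.47 in ERW medium and -0.0182 to 0.63 in RW medium. Causes were not tested. Cldn10, at 34 to 180 counts per library, is limited most by depth.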
